A study of Mus musculus with 6 samples.

Results

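The genes described here encode steps of glycolysis and targets of the cellular response to low oxygen, read in embryonic mouse back skin with and without the receptor gene Fzd6. The members were named by gene symbol, by a rule that used no measured value: Slc2a1, Hk1, Hk2, Pfkp, Aldoa, Gapdh, Pgk1, Eno1, Ldha and Vegfa. Earlier results of these data were known when they were chosen. Of the 10, the array annotation paired 9 with at least 1 probe set, and 8 had probe sets of their own, 20 in all, among 18193 genes on the array. Gapdh was read, outside the array's control features, only by 3 probe sets that it shares with related loci, a further probe set is shared by Hk1 and several Rpl17 loci, and Eno1 was not analysed here. RNA of E15.5 back skin was hybridised to Affymetrix MOE430 2.0 arrays, on which sets of short probes read each transcript. The 3 control samples carried 1 mutant copy of Fzd6 (Fzd6 +/-) and the 3 knockout samples carried 2 (Fzd6 -/-), all on a C57BL6/129 mixed background, so no wild-type skin was compared. The labels call the samples biological replicates without saying whether each came from 1 embryo, and p-values measure only the spread between these samples. Fzd6 encodes a Frizzled receptor that acts in planar cell polarity.

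Glycolysis splits glucose into pyruvate in the cytoplasm, and lactate dehydrogenase turns pyruvate into lactate when little of it is burned in mitochondria. When oxygen is short, the factor HIF-1 escapes breakdown by prolyl hydroxylases and the VHL protein, binds DNA at short elements with the core ACGTG or GCGTG, and raises the genes of glucose uptake, most glycolytic steps and the vessel growth factor VEGF-A. In skin, keratinocytes of the epidermis lie away from vessels and use much glucose.

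Promoter sequence is shown first because HIF-1 elements are what this gene set is known for. RefSeq windows of the 250 bases before each annotated start (GRCm38.p6) were searched for ACGTG and GCGTG on both strands. All 8 genes with probe sets of their own matched the promoter table, with 13 windows, of which some overlap. At least 1 match lay in 10 of the 13 windows, beside 38.6% of the 32851 windows of the same length over all genes. The overlapping Aldoa windows hold the same match, which counts in each. Each of the 8 genes had at least 1 window with a match. For Vegfa this was only the window of a start further downstream, whose matches lie in what reads as coding sequence. No share by gene was counted over all genes, and a gene with several windows has more chances to match. ACGTG alone was found in 7 member windows and in 16.6% of all windows. Both words hold a CG pair, and CG pairs were more frequent in the member windows (median 14, range 0 to 25) than in all windows (median 6). The part of base composition in the share of matches was not tested. CACGTG, the E-box that other factors bind, contains ACGTG on both strands and was counted once per strand. The 5 windows below are those of Ldha and Pgk1, which followed the average course of the members over the arrays most closely with Aldoa, of the glucose transporter Slc2a1, and of Hk1 and Vegfa, whose groups did not overlap. Capitals mark every match on either strand, and each sequence runs 5′ to 3′ on the strand of its gene.
Ldha, chr7:46845554-46845803, + strand: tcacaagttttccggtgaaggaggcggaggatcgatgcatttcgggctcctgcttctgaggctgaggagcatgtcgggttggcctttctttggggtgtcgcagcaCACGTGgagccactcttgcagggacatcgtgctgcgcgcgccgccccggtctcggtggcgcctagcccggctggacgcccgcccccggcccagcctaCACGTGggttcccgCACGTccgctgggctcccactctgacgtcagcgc
Pgk1, chrX:106186850-106187099, + strand: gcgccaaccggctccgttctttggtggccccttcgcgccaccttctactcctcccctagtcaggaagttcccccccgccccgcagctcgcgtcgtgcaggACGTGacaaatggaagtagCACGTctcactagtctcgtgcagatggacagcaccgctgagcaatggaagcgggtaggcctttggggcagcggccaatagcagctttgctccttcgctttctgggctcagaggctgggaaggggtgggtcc
Slc2a1, chr4:119108495-119108744, + strand: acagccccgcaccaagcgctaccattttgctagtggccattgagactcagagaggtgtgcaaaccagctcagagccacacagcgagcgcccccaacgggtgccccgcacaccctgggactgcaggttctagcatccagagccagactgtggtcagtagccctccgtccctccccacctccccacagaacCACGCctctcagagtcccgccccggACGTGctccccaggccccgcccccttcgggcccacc
Hk1, chr10:62340422-62340671, - strand: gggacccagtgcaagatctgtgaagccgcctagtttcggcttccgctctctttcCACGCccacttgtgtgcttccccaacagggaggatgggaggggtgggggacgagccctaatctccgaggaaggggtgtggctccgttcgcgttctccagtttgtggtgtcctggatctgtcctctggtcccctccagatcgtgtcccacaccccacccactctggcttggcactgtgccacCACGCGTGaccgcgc
Vegfa, chr17:46032378-46032627, - strand: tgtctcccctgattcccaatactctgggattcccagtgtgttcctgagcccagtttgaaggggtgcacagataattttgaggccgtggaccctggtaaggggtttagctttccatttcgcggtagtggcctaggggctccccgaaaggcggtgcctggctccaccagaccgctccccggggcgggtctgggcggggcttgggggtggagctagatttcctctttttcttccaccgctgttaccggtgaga
The Ldha window held 5 matches in 3 stretches, and its distal and middle stretches are the E-box CACGTG. Pgk1 and Slc2a1 had 2 matches each, and Hk1 had 3 in 2 stretches. The other Hk1 window, further upstream, had none. The printed Vegfa window had no match. The window of a Vegfa start further downstream had 2. It lies downstream of the start of the printed window, and whether its letters are promoter or coding sequence was not determined. A match is a description of letters and says nothing of factor binding, and a window without one says only that these letters are not in it.

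The values are RMA expression values on the log2 scale, so a difference of 1 is a doubling. They are given per array in the order of replicates 1, 2 and 3. Array medians lay between 5.99 and 6.03. The targeted gene, Fzd6, read 9.504, 9.51 and 9.11 in the controls and 9.07, 9.01 and 8.71 in the knockouts in its brightest probe set (difference -0.44). A dimmer set differed by -0.67, likewise without overlap, and the remaining one by -0.0097. Where these probes lie relative to the deleted part was not determined. The skin markers Krt14 of basal keratinocytes (12.2 to 13.4) and Col1a1 of fibroblasts (9.94 to 12.1) were far above the array medians in all 6 arrays. Some arrays stood apart in their cell markers. The fat cell gene Adipoq read 8.64 in control 1 and between 3.32 and 3.48 in the other 5 arrays. Other fat cell genes did not stand apart there. Fabp4 read 9.44 in control 1 and 9.28 in control 2, and Pparg 7.57 in control 1 and 7.39 in knockout 1. Cidec read 4.42 in control 1 and 4.58 in knockout 1, and Lpl 10.09 in control 1 and 10.24 in knockout 3. The mean of 8 endothelial genes ran from 7.86 in control 1 up to 8.54 in the controls and from 7.36 in knockout 1 up to 8.60 in the knockouts, and Y-linked genes were low in control 2 and knockout 3. In such bulk samples, fewer cells of a type and less RNA per cell cannot be told apart.

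Over the whole table, limma's moderated test called no probe set of 45037 at an adjusted p under 0.05, which is 0%, and 2348 (5.21%) at an unadjusted p under 0.05. None of the 20 member probe sets was called (smallest adjusted p = 0.909 in limma). At an unadjusted p under 0.05 there was 1 of 20, or 5%, which is near the 5.21% over all probe sets. The groups did not overlap in 2 of the 20, or 10%, beside 11.6% of all probe sets. The one of Hk1 was higher in the knockout, as were 6.55% of all probe sets without overlap. The one of Vegfa was lower, as were 5% of all probe sets. By gene, represented by its brightest probe set, 6 of 8 had higher and 2 lower values in the knockout, while 52.4% of all 18193 genes had higher values. This split rested on single arrays, since without control 3, and likewise without knockout 1, only 1 of 8 had a higher value, namely Hk1. The median difference of the 8 genes was 0.034 and that of all genes 0.0070. The typical size of a difference was not large either, with a median absolute difference of 0.064 in the members and 0.084 over all genes. No member thus rose or fell by the test, and the values that follow are given as measured.

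**Figure D1:**
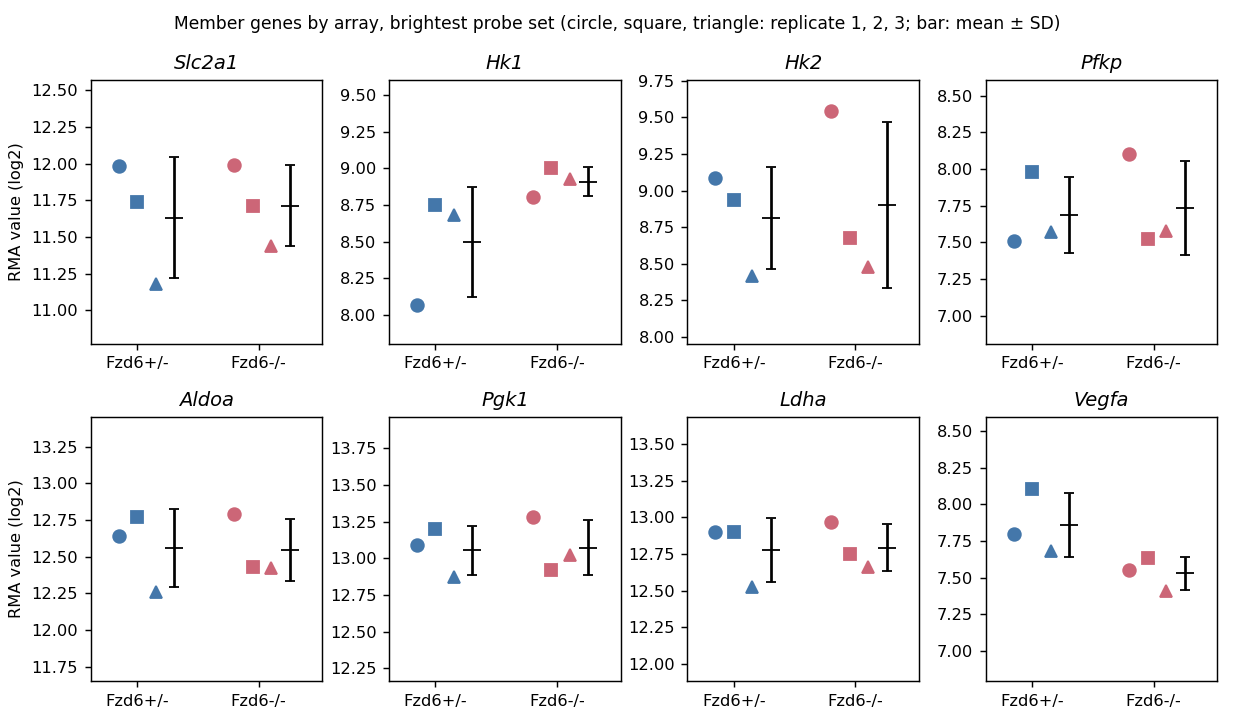
RMA values (log2) of the 8 member genes in each array, brightest probe set, for Fzd6+/- (blue) and Fzd6-/- (red) skin. Circles, squares and triangles are replicates 1, 2 and 3 and the bars show mean ± SD of 3 arrays. The groups do not overlap for Hk1 and Vegfa, and all panels have the same height in log2 units.

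Glucose entry was read through Slc2a1, which encodes GLUT1, the main glucose carrier of keratinocytes. Its brightest probe set read 11.98, 11.74 and 11.18 in the controls and 11.99, 11.71 and 11.44 in the knockouts. Replicate 1 was high and replicate 3 low in both groups, and the groups overlapped almost fully. The means were 11.6 ± 0.41 and 11.7 ± 0.27 (SD, n = 3 each), which differ by 0.081 (95% interval -0.44 to 0.60, adjusted p = 0.985 in limma), while the controls alone spanned 0.80. The other probe sets of Slc2a1 differed by -0.016 and -0.13, so the sign was not the same in all 3. Slc2a3, the related carrier GLUT3, showed a like course, at 12.02, 11.66 and 11.25 in the controls and 12.00, 11.55 and 11.18 in the knockouts, a difference of -0.066 (-0.65 to 0.52). The log2 ratio of Slc2a1 to Slc2a3 within an array shifted by 0.15 between the groups (two-sided exact permutation p = 0.2, adjusted p = 0.4 over 4 such pairs, where 3 against 3 arrays cannot give less than 0.1).

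Hexokinases trap glucose in the cell by adding a phosphate. Hk1, the widely expressed form, had the largest positive difference of the members. It read 8.07, 8.75 and 8.68 in the controls and 8.80, 9.004 and 8.93 in the knockouts. All 3 knockouts lay above all controls, knockout 1 only just above control 2, and control 1 lay well below the other 2. The difference was 0.41 (-0.0076 to 0.83, 1.33-fold, limma unadjusted p = 0.0533 and adjusted p = 0.909). Its dimmer probe set gave 6.04, 6.39 and 6.29 against 6.64, 6.54 and 6.36, a difference of 0.27 (-0.012 to 0.55) with overlap between control 2 and knockout 3. Without control 1 the Hk1 difference was 0.20, far smaller than with all arrays. Control 1 was also the array with the high Adipoq value, though other fat cell genes did not stand apart there. The means of its endothelial and fibroblast markers were low too, and those of knockout 1 lower still. Single markers differed, as Tek, Dcn and Pdgfra were not lowest of the controls in control 1. The part of these cell types in the Hk1 value was not tested. The probe set that Hk1 shares with Rpl17 loci differed by -0.012 and is no reading of Hk1.

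Hk2, the inducible hexokinase and a HIF-1 target, varied most between arrays of 1 group. It read 9.08, 8.93 and 8.42 in the controls and 9.54, 8.68 and 8.48 in the knockouts. Knockout 1 was the highest and knockouts 2 and 3 lay inside the range of the controls. The difference of 0.089 (-0.59 to 0.77) was smaller than the range of 0.66 in the controls and of 1.06 in the knockouts. The log2 ratio of Hk1 to Hk2 shifted by 0.32, with an SD of 0.65 in either group (exact permutation p = 0.5, smallest possible 0.1, adjusted p = 0.667 over the 4 pairs).

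The next steps prepare and split the sugar. Pfkp, the platelet type of phosphofructokinase, which commits the sugar to glycolysis, read 7.51, 7.98 and 7.57 in the controls and 8.10, 7.52 and 7.58 in the knockouts. Control 2 and knockout 1 were high and the other 4 arrays lay close together, so the difference of 0.047 (-0.39 to 0.49) says little of either group. The other Pfkp probe sets were below the array medians, at 5.78 to 5.86 and 4.36 to 4.74. Aldoa, the aldolase of muscle and most tissues, read 12.64, 12.77 and 12.26 against 12.79, 12.43 and 12.42, a difference of -0.0094 (-0.38 to 0.37). Its 4 dimmer probe sets differed by -0.050 to 0.10. All 5 Aldoa probe sets are of a type that can take up related sequences, and in all 5 control 3 was the lowest control and knockout 1 the highest knockout.

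The payoff steps make ATP and pyruvate. Pgk1, the X-linked phosphoglycerate kinase, read 13.09, 13.20 and 12.87 in the controls and 13.28, 12.92 and 13.02 in the knockouts. The highest and the next highest value fell in different groups, and the difference was 0.020 (-0.28 to 0.32). Its other probe sets differed by 0.0032 and 0.041. Ldha, the lactate dehydrogenase subunit that favours lactate, read 12.90, 12.90 and 12.52 against 12.97, 12.75 and 12.66, a difference of 0.017 (-0.30 to 0.33). The 3 probe sets that Gapdh shares with related loci differed by -0.0084, 0.054 and 0.15. The brightest of them read 13.93, 14.00 and 13.60 in the controls and 13.86, 13.89 and 13.74 in the knockouts, near the top of the arrays' range of 2.39 to 14.82. The array's own 3 Gapdh control sets, which entered no test, differed by -0.025 to 0.014.

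Vegfa, which encodes the growth factor that draws in blood vessels and is a HIF-1 target, had the largest negative difference of the members. It read 7.80, 8.10 and 7.68 in the controls and 7.55, 7.63 and 7.41 in the knockouts. Every knockout lay below every control, though knockout 2 lay only just below control 3. The means were 7.86 ± 0.22 and 7.53 ± 0.11, a difference of -0.33 (-0.63 to -0.039, 0.794-fold, limma unadjusted p = 0.0314 and adjusted p = 0.909). An unadjusted p under 0.05 with a lower value was found in 2.63% of all probe sets, and one with a higher value in 2.58%. The dimmer Vegfa probe set, at 5.98 to 6.18 and thus at the level of the array medians, differed by -0.049 (-0.24 to 0.14). Without control 2, the highest array, the difference was -0.21, and over all arrays left out in turn it lay between -0.42 and -0.21. The endothelial means were lowest in knockout 1 and highest in knockouts 2 and 3. The part of cell makeup in the Vegfa value was not tested.

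No label explains the replicate numbers. They were taken as a pairing from these data alone, and the p-values of the blocked fit rest on that choice. With the replicate number as a block, 3 of 20 member probe sets, or 15%, had an unadjusted p under 0.05, where 12% of all probe sets did. They were the brightest of Vegfa (adjusted p = 0.335 in limma with the block) and both of Hk1 (adjusted p = 0.34 and 0.413 in limma with the block). Within numbers 1, 2 and 3, Vegfa differed by -0.25, -0.47 and -0.28 and the brightest Hk1 set by 0.73, 0.25 and 0.24. None of the 20 passed the adjusted threshold in the blocked fit, where 3 of all probe sets (0.00666%) did, 1 of Sdc2 and 2 with no single gene name.

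**Figure D2:**
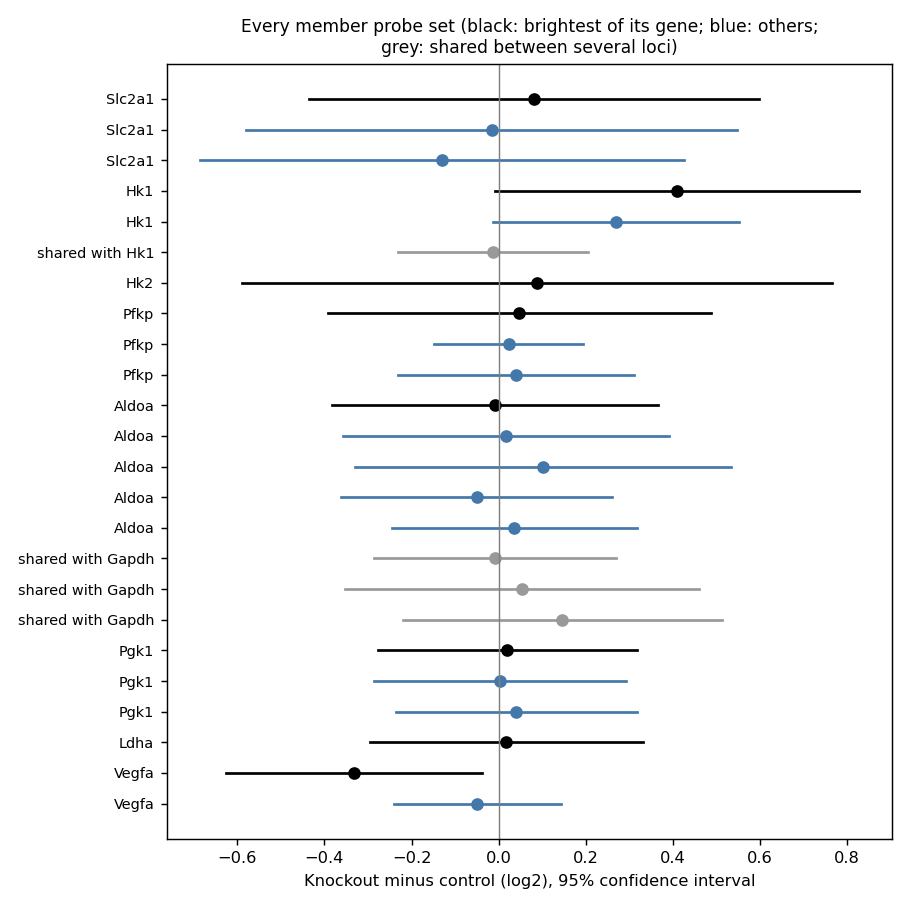
Differences (knockout minus control, log2) with 95% confidence intervals for all 24 member probe sets, in the order of the pathway; black marks the brightest set of each gene, blue its other sets and grey the sets shared between loci. The interval of 1 probe set, the brightest of Vegfa, lies wholly on 1 side of 0.

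Several members shared a course over the arrays that did not follow genotype. With each gene centred on its own mean, their average was 0.0032, 0.17 and -0.23 in controls 1 to 3, and 0.25, -0.049 and -0.14 in knockouts 1 to 3. Control 3 was the lowest control in 6 of 8 genes, where this held for 29% of all genes, and knockout 1 the highest knockout in 6 of 8, beside 40.9% of all genes. Both held in 5 of 8 members, namely Slc2a1, Hk2, Aldoa, Pgk1 and Ldha, in 9 of 24 other glycolysis genes and in 14.6% of all genes. This pattern was noticed in the values and was not tested. Hk1 lay farthest from the average course (root mean square distance 0.35 over the 6 arrays), followed by Hk2 (0.25) and Vegfa (0.22). Aldoa (0.056), Ldha (0.058) and Pgk1 (0.061) lay closest. This distance grows with the size of a gene's swings and does not measure their shape alone. Hk2 had an SD of 0.42 over the arrays, beside 0.18 for the average course, and is among the 5 genes named above. The difference between the groups was smaller than the range of the controls in all 8 genes, and smaller than the range of the knockouts in 6 of 8, the exceptions being Hk1 and Vegfa.

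The mean of the basal epidermal markers varied in a like way, but single genes departed from it. Knockout 1 was not the highest knockout in Itga6, Itgb4 and Col17a1, and control 3 was not the lowest control in Itga6. All 8 basal markers were measured. Their mean level ran from 10.3 to 10.9 in the controls and from 10.5 to 11.0 in the knockouts. Centred in the same way, the basal list gave 0.064, 0.15 and -0.41 for controls 1 to 3 and 0.25, 0.18 and -0.23 for knockouts 1 to 3, so that control 3 was lowest and knockout 1 highest there too. The 10 suprabasal markers gave -0.24, -0.29 and -0.16 for the controls against 0.60, 0.11 and -0.025 for the knockouts, with mean levels of 11.3 to 11.4 and 11.5 to 12.2, and 9 of 10 were higher in the knockout means. In limma 6 of 10 had an unadjusted p under 0.05, all higher, beside 5.07% of all genes, and none passed the adjusted threshold. Their groups did not overlap in 7 of 10, all higher in the knockout, beside 11.3% of all genes. The part of the share of epidermis in the members' course was not tested.

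Outside the members, the 3 genes closest to their average course were Kdm5b, a histone demethylase, at a root mean square distance of 0.043, Bhlhe40, a transcriptional repressor, at 0.065, and Itpr2, a calcium channel of internal stores, also at 0.065. The search covered 4656 genes above the median level that varied at least as much as the average course, whose median distance was 0.30. Bhlhe40 is also in the list of hypoxia-responsive genes. It read 9.32, 9.31 and 8.99 in the controls and 9.52, 9.14 and 9.01 in the knockouts.

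**Figure D3:**
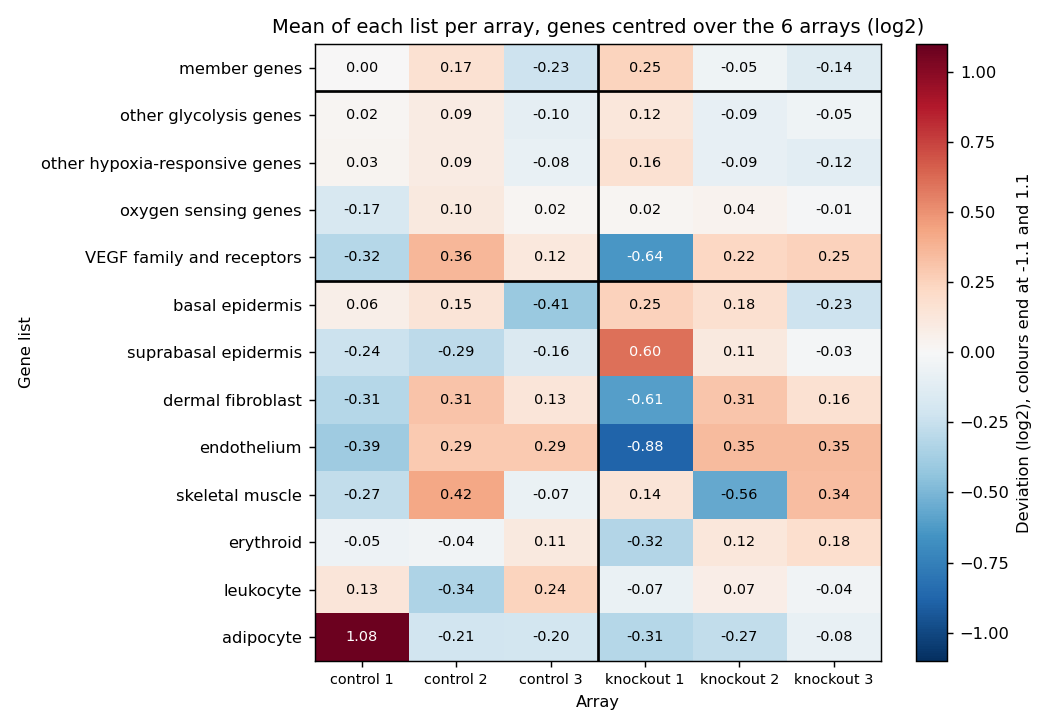
Mean of each gene list in each array (columns) after every gene was centred on its mean over the 6 arrays, in log2 units, printed in each cell and coloured from blue (low) to red (high). Member genes, other glycolysis genes and other hypoxia-responsive genes are highest in knockout 1, at 0.25, 0.12 and 0.16. The endothelium, fibroblast and VEGF family lists are lowest there.

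The rest of the pathway was followed in 4 lists, and no gene of any of them had an unadjusted p under 0.05, where 5.07% of all genes did, or passed the adjusted threshold. With the replicate block, a pairing that no label gives, 7 of the 64 genes had an unadjusted p under 0.05, where 12.2% of all genes did. None passed the adjusted threshold. The 7 were Pdk2, with higher values in the knockout, and Slc16a1, Arnt2, P4ha1, Nrp1, Vegfc and Lox, with lower values. Within numbers 1, 2 and 3, Pdk2 differed by 0.32, 0.29 and 0.23. Lox, which crosslinks collagen and was chosen after its values were seen, differed by -0.18, -0.35 and -0.27. P4ha1 and Nrp1 did not keep 1 sign over the 3 numbers. In the fit without the block, of 24 other glycolysis genes measured, values were higher in 9 and lower in 15, and the median was -0.032. The smallest p belonged to Pdk2, a kinase that holds back the oxidation of pyruvate in mitochondria (0.28, -0.069 to 0.63), Pfkfb2, which makes the activator of phosphofructokinase (-0.15, -0.35 to 0.039), and Pklr, the pyruvate kinase of liver and red cells (0.14, -0.053 to 0.34). The groups did not overlap in Pfkfb2 and Pklr, which is 2 of 24 beside 11.3% of all genes. Slc16a1, the lactate carrier MCT1, chosen after its values were seen, had the largest negative difference of the list, at 10.94, 10.63 and 10.06 in the controls and 10.72, 9.97 and 9.91 in the knockouts (-0.34, -0.995 to 0.31). With single arrays left out this value ran from -0.60 (without knockout 1) to -0.14 (without control 1), and the mean of its probe sets gave -0.17. Its course resembled that of Slc2a1, with replicate 1 highest in either group.

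Some enzymes of glycolysis have forms made mainly in muscle. Eno3 and Pgam2, the enolase and phosphoglycerate mutase of muscle, also chosen after their values were seen, were lowest among the knockouts in knockout 2, at 9.45 and 8.68, and Pgam2 was highest in knockout 3, at 9.49. The 11 skeletal muscle markers, centred per gene, gave -0.27, 0.42 and -0.072 for controls 1 to 3 and 0.14, -0.56 and 0.34 for knockouts 1 to 3, thus also lowest in knockout 2. Pfkm, the muscle phosphofructokinase, chosen in the same way, read 8.40, 8.77 and 8.89 in the knockouts, lowest in knockout 1. Aldoa is made in muscle as well, and in a fit with the muscle mean as a covariate its difference was 0.0017.

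Oxygen sensing genes encode HIF subunits and the enzymes that mark them for breakdown. Of 11 measured, values were higher in 6 and lower in 5, and the median was 0.058, or -0.14 without control 1. Vhl, the adaptor that marks HIF for breakdown, read 7.79, 7.75 and 7.74 in the controls and 7.57, 7.66 and 7.55 in the knockouts, below all controls (-0.17, -0.34 to 0.0094, limma adjusted p = 0.909). Egln2, a prolyl hydroxylase chosen after its values were seen, was the other of 2 in 11 without overlap (0.058, -0.11 to 0.23), beside 11.3% of all genes. Arnt2, a HIF partner, differed by -0.23 (-0.49 to 0.023) and Cited2, which competes with HIF for a coactivator, by 0.16 (-0.098 to 0.41). Hif1a itself, chosen after its values were seen, read 11.16, 11.22 and 11.17 against 11.55, 11.24 and 11.18, and thus stood out in knockout 1 alone (0.14, -0.12 to 0.40). HIF-1 is set mainly by the stability of its protein, which arrays do not read. Egln3, the prolyl hydroxylase that HIF induces, also chosen after its values were seen, had the largest positive difference of the list, 0.43 (-0.28 to 1.15). It read 10.50 in knockout 1 and between 9.19 and 9.35 in the other 5 arrays, and without replicate 1 of both groups the difference was -0.0086.

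Other hypoxia-responsive genes showed no common direction, with 11 of 20 higher and 9 lower, a median of 0.0078 and overlap of the groups in all 20. Without knockout 1 the count of higher values was 4. The smallest p belonged to P4ha1, a collagen prolyl hydroxylase (-0.30, -0.69 to 0.094), Ankrd37 (-0.16, -0.40 to 0.080) and Plod2, a collagen lysyl hydroxylase (-0.22, -0.62 to 0.18). P4ha1 read 9.49, 9.89 and 9.24 in the controls and 9.09, 9.39 and 9.25 in the knockouts, where control 2 stood above the rest. With single arrays left out the difference ran from -0.45 (without control 3) to -0.12 (without control 2) for P4ha1. The range was -0.22 (without control 1) to -0.085 (without control 2) for Ankrd37 and -0.34 (without control 3) to -0.050 (without knockout 2) for Plod2.

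In the VEGF family and its receptors, values were higher in 2 of 9 genes and lower in 7, and the median was -0.11. Without knockout 1, 8 of 9 had higher values, and without control 1 none did, so the direction rested on these arrays. The smallest p belonged to the co-receptor Nrp1 (-0.24, -0.75 to 0.26), the lymphatic receptor Flt4 (-0.19, -0.91 to 0.53) and its ligand Vegfc (-0.24, -1.23 to 0.75). Kdr, the main signalling receptor for VEGF-A on endothelium, read 8.09, 9.02 and 8.76 in the controls and 7.28, 8.92 and 8.93 in the knockouts, low in replicate 1 of both groups (-0.25, -1.32 to 0.82). Flt1, the decoy-like receptor, differed by 0.11 (-0.39 to 0.61). The mean of the endothelial markers was low in the same arrays as Kdr, though Tek was not low in control 1. Without knockout 1 the Kdr difference was 0.30. The log2 ratio of Vegfa to Flt1 shifted by -0.44 (exact permutation p = 0.2) and that to Kdr by -0.085 (exact permutation p = 0.9), with adjusted p = 0.4 and 0.9 over the 4 pairs. This permutation test of 3 against 3 arrays could give no p under 0.1.

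**Figure D4:**
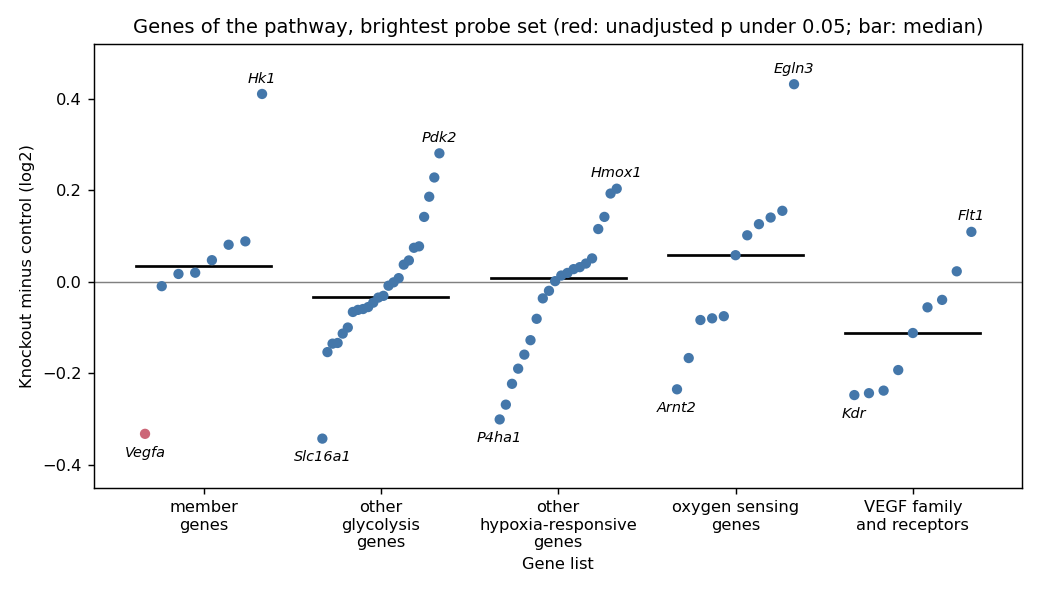
Differences (knockout minus control, log2) of each measured gene, brightest probe set, in the member list and the 4 pathway lists, sorted within a list; the bar is the median and red marks an unadjusted p under 0.05. The medians lie between -0.11 and 0.058, and Vegfa is the only red point.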

How the data were processed

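Total RNA of E15.5 back skin was biotin labelled and hybridised, per the labels' protocols. The deposited log2 values are RMA summaries per probe set (background corrected, quantile normalised between arrays), per the submitters' processing notes; the log base was read from the values' range. RMA makes the arrays alike in distribution, so a shift of most genes would not show. The 64 array control sets were left out and 45037 probe sets tested without a filter. Names came from the platform annotation, updated through Entrez identifiers to GRCm38.p6 (34945 probe sets with 1 symbol, 932 with several, 9160 with none). Probe sets with several symbols were named for no gene. The brightest probe set over 6 arrays stood for a gene.

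The test was limma's (version 3.58.1, R 4.3.3; two-sided lmFit and eBayes fit without covariates, Benjamini-Hochberg over all probe sets). Figures used matplotlib 3.10.9. The rule for the members used no measured value, but the members and lists were chosen with earlier results of these data known. Genes named are the members, Fzd6, per list those at an unadjusted p under 0.05 or else the 3 with the smallest p, Slc2a3, Flt1, Kdr and the 3 closest in course; others are said to be chosen after their values were seen.

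Replicate numbers recur in both groups. Same-numbered arrays deviated together from their group means (r = 0.568, 0.359 and 0.124 over probe sets), all over 0.1, and the numbers were taken as a pairing from these data alone, since no label explains them. Control 2 deviated more like knockout 3 (r = 0.422). Y-linked genes were low in these 2 arrays but not in knockout 2 or control 3, so numbers 2 and 3 each join arrays of unlike Y-linked level. Alternatives were a variance trend, a filter at the median level, further quantile normalisation, centring, array weights, the replicate block, Y-linked or muscle means as covariate, other probe set choices and arrays left out.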

Additional observations from a re-analysis of the deposited data

How the results depend on the processing

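No member passed an adjusted p of 0.05 in limma under any of 17 alternative settings (smallest 0.335, Vegfa in the replicate block), and Hk1 stayed higher and Vegfa lower in all of them. The count of all probe sets called was 0 except 3 with the replicate block, and it was 0 with each array left out. The count of member probe sets at an unadjusted p under 0.05, 1 in the report, was 3 with further quantile normalisation and with the replicate block, 2 with centred arrays, with array weights, with the Y-linked covariate and without replicate 1 of both groups, 0 with the muscle covariate, and 1 to 2 with single arrays left out. The count of members with higher values, 6 in the report, was 2 without replicate 1 of both groups and 1 to 7 with single arrays left out, with 1 both without control 3 and without knockout 1. The median of the oxygen sensing genes ran from -0.14 (without control 1) to 0.068.

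Signs of small differences turned. Aldoa was at 0.0015 with further quantile normalisation, 0.0053 with centred arrays, 0.0017 with the muscle covariate and 0.019 as the mean of its probe sets, where Slc2a1 was at -0.022, Arnt2 at 0.0077 and Flt1 at -0.049. Array weights gave -0.022 for Hk2, -0.065 for Pfkp and 0.014 for Kdr. Without replicate 1 of both groups, Hk2 was at -0.097, Pfkp at -0.23, Pgk1 at -0.066, Ldha at -0.0091, Flt1 at -0.019, Kdr at 0.036 and Egln3 at -0.0086. With single arrays left out the ranges were -0.15 to 0.26 for Slc2a1, -0.23 to 0.30 for Hk2, -0.14 to 0.19 for Pfkp, -0.16 to 0.099 for Aldoa, -0.083 to 0.098 for Pgk1, -0.11 to 0.084 for Ldha, -0.28 to 0.13 for Slc2a3, -0.13 to 0.29 for Flt1, -0.52 to 0.30 for Kdr, -0.42 to 0.17 for Flt4 and -0.61 to 0.19 for Vegfc. Others kept their sign with single arrays left out but varied in size: Pdk2 from 0.15 to 0.40, Pfkfb2 from -0.19 to -0.10, Pklr from 0.089 to 0.18, Arnt2 from -0.33 to -0.14, Cited2 from 0.069 to 0.22, Hif1a from 0.026 to 0.21 and Nrp1 from -0.38 to -0.021. The cause was not tested. Without detection calls, probe sets near the array medians, such as the dimmer ones of Pfkp and Vegfa, may be limited by background.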

Other observations

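Of 20 other hypoxia-responsive genes, 9 were highest of all 6 arrays in knockout 1 and 3 (P4ha1, Lox and Car9) lowest there, and of 24 other glycolysis genes 7 were highest and 4 lowest there, beside 23.4% highest and 23.9% lowest among all genes. Of 11 oxygen sensing genes 3 were highest and 2 lowest there, and of 9 genes of the VEGF list 0 were highest and 8 lowest. The 4 lists together gave 29.7% highest and 26.6% lowest. Examples of genes highest in knockout 1, chosen after their values were seen, follow. Aldoc, the aldolase of brain and other tissues, read 9.94 there and between 8.79 and 9.27 in the other 5 arrays. Ndrg1, a stress-induced gene, read 10.67 there and between 9.60 and 9.96 elsewhere. Bnip3, a mitophagy receptor, read 9.65 there and 8.80 to 9.48 elsewhere. Car9, a carbonic anhydrase widely used as a hypoxia marker, was lowest there, at 4.95 in knockout 1 and 4.98 to 5.21 elsewhere, below the array medians, and P4ha1 and Lox read 9.09 and 10.50 in knockout 1, also their lowest values. Epas1, which encodes HIF-2 alpha of endothelium, was low in replicate 1 of both groups, at 7.80 and 8.30 against 8.97 to 9.34 in the other 4 arrays. The mean of the endothelial markers was low in the same arrays, though Tek was not low in control 1.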
